A study of Mus musculus with 6 samples.

Results

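The tumor necrosis factor (TNF) superfamily was followed through the leukocytes of the spinal cord in adoptively transferred EAE. Members were all genes of the single-cell table whose symbol began with *Tnfsf* or *Tnfrsf*, together with *Tnf*, *Lta*, *Ltb*, *Ltbr*, *Cd27*, *Cd70*, *Cd40*, *Cd40lg*, *Fas* and *Fasl*. This rule took 42 of 19449 genes, namely 17 ligands, 24 receptors and 1 antisense RNA, *Tnfsf13os*, which overlaps *Tnfsf13* and is not a ligand. 37 members had 100 or more UMIs over all cells. The other 5 were *Tnfsf4* with 76 UMIs, *Tnfsf18* with 21, *Tnfrsf17* with 18, *Tnfrsf19* with 6 and *Tnfrsf11b* with 0.

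The study asked how the age of the recipient shapes EAE that is driven by transferred CD4+ T cells. Donor T cells from MOG-immunized mice were cultured with IL-23 and given to wild-type C57BL/6 recipients that were either young adult, at 8 to 12 weeks, or middle-aged, at 40 to 44 weeks. CD45+ cells were sorted from spinal cords on day 6 or day 10 after transfer. There was 1 single-cell library for each age and day, each from 4 pooled cords, so no difference between libraries has a replicate check, and donor and host T cells cannot be told apart in them. A further 2 bulk RNA libraries, 1 per age, came from spinal cord microglia of untreated mice, sorted as CD45int CD11b+ cells, each from 4 pooled cords.

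The single-cell table held 38057 cells in 16 deposited clusters, with 57337626 to 69859331 UMIs per library and 154 cell barcodes found in more than 1 library. By listed marker genes, 9 clusters were described here, as T cell-like cluster 2, NK-like cluster 9, B cell-like cluster 4, dendritic cell-like cluster 7, monocyte/macrophage-like clusters 1 and 5, microglia-like clusters 10 and 8 and neutrophil-like cluster 0. Clusters 3 and 6 were also neutrophil-like, and the remaining 5 were dividing or held markers of several lineages. Levels are UMIs of a gene per 1000000 UMIs (CPM), summed over the cells of a cluster in a library. Intervals are 95% intervals for counting error only, and they take no account of differences between mice or of spread between cells. A member was called higher or lower when it had 50 or more UMIs in both libraries together, differed by 1.5-fold or more and had an interval of its ratio that did not span 0. The same rule applied to all genes gave the background beside the counts of each cluster. Counts remade under other settings or with cells left out have no such background.

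TNF superfamily ligands are mostly trimeric proteins held in the membrane of the producing cell. Most of their receptors, though not all, either carry a death domain or recruit TRAF adaptor proteins that lead to NF-κB and MAP kinase signaling. Co-stimulatory receptors of the family, such as OX40 (*Tnfrsf4*) and GITR (*Tnfrsf18*), appear on T cells after activation, while BAFF (*Tnfsf13b*) and APRIL (*Tnfsf13*) from myeloid cells sustain B cells and plasma cells. In EAE, TNF, lymphotoxin and CD40 ligand are long-known participants in CNS inflammation.

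The genes lie partly in clusters. On mm10 (GRCm38), by GENCODE annotation, *Ltb* at chr17:35194439-35196320, *Tnf* at chr17:35199381-35202007 and *Lta* at chr17:35203165-35205351 are neighbors, as are *Tnfrsf4* at chr4:156013843-156016612 and *Tnfrsf18* at chr4:156026164-156028895. *Tnfrsf26*, *Tnfrsf22* and *Tnfrsf23* follow each other between chr7:143607659 and chr7:143685872 and are near copies, so reads could be split between them and their separate values are uncertain. RefSeq promoters of GRCm38.p6 were found for 31 members, with 35 start sites, and the 250 bases before each start were searched on both strands for the consensus of NF-κB sites and for the AP-1 motif TGANTCA. A match to the NF-κB consensus was present before 3 of the 35 member starts, in *Ltb*, *Tnfrsf8* and *Tnfrsf9*, against 3.9% of all 32851 promoters. AP-1 matches were present before 6, in *Tnfrsf8*, *Tnfrsf9*, *Tnfsf13b*, *Tnfsf13*, *Tnfsf14* and *Fas*, against 6.75% of all promoters. The lymphotoxin and *Tnf* promoters are shown because these neighboring genes had their highest levels in different cells, and a stretch of the *Tnfrsf9* promoter because this receptor had the largest ratio in macrophages. Capitals mark matches to the NF-κB consensus. The *Ltb* window is cut where 68 bases lie in an annotated exon, and only 30 bases around the match are given for *Tnfrsf9*, where 81 bases of the window lie in one. A match is only a run of letters, and no binding was measured.
Ltb, chr17:35194257-35194438, plus strand, match at -87 from the start: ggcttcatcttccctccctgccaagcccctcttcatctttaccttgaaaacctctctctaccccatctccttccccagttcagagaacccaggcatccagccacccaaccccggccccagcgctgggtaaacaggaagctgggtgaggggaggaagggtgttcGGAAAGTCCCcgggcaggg
Tnf, chr17:35202008-35202257, minus strand, no match: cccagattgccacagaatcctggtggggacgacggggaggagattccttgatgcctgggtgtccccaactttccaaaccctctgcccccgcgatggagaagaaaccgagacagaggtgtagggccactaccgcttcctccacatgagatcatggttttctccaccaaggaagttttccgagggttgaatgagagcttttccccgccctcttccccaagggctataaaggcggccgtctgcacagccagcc
Lta, chr17:35205352-35205601, minus strand, no match: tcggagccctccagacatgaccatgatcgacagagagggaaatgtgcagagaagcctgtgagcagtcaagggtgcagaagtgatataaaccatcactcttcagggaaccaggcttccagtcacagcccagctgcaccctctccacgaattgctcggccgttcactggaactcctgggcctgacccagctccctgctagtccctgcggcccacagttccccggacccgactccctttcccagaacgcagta
Tnfrsf9, chr4:150927946-150927975, plus strand, match at -43 from the second of its starts: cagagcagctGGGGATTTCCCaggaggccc

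Ligands and receptors were divided between lineages. Of the 37 members with 100 or more UMIs, 12 had their highest pooled level in T cell-like cluster 2, 8 in neutrophil-like cluster 0, 3 each in clusters 1, 5, 7, 9 and 10 and 2 in B cell-like cluster 4. T cells led for 6 ligands, *Ltb*, *Lta*, *Cd40lg*, *Tnfsf8*, *Tnfsf10* and *Tnfsf11*, and for 6 receptors, *Tnfrsf4*, *Tnfrsf9*, *Tnfrsf18*, *Tnfrsf25*, *Tnfrsf8* and *Tnfrsf10b*. Neutrophils led for *Tnf* and *Tnfsf14* and for the receptors *Tnfrsf1a*, *Tnfrsf1b*, *Fas*, *Tnfrsf22*, *Tnfrsf23* and *Tnfrsf26*. The clusters were made from the expression of these same cells, so the differences between clusters are a description without a test.

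**Figure D1:**
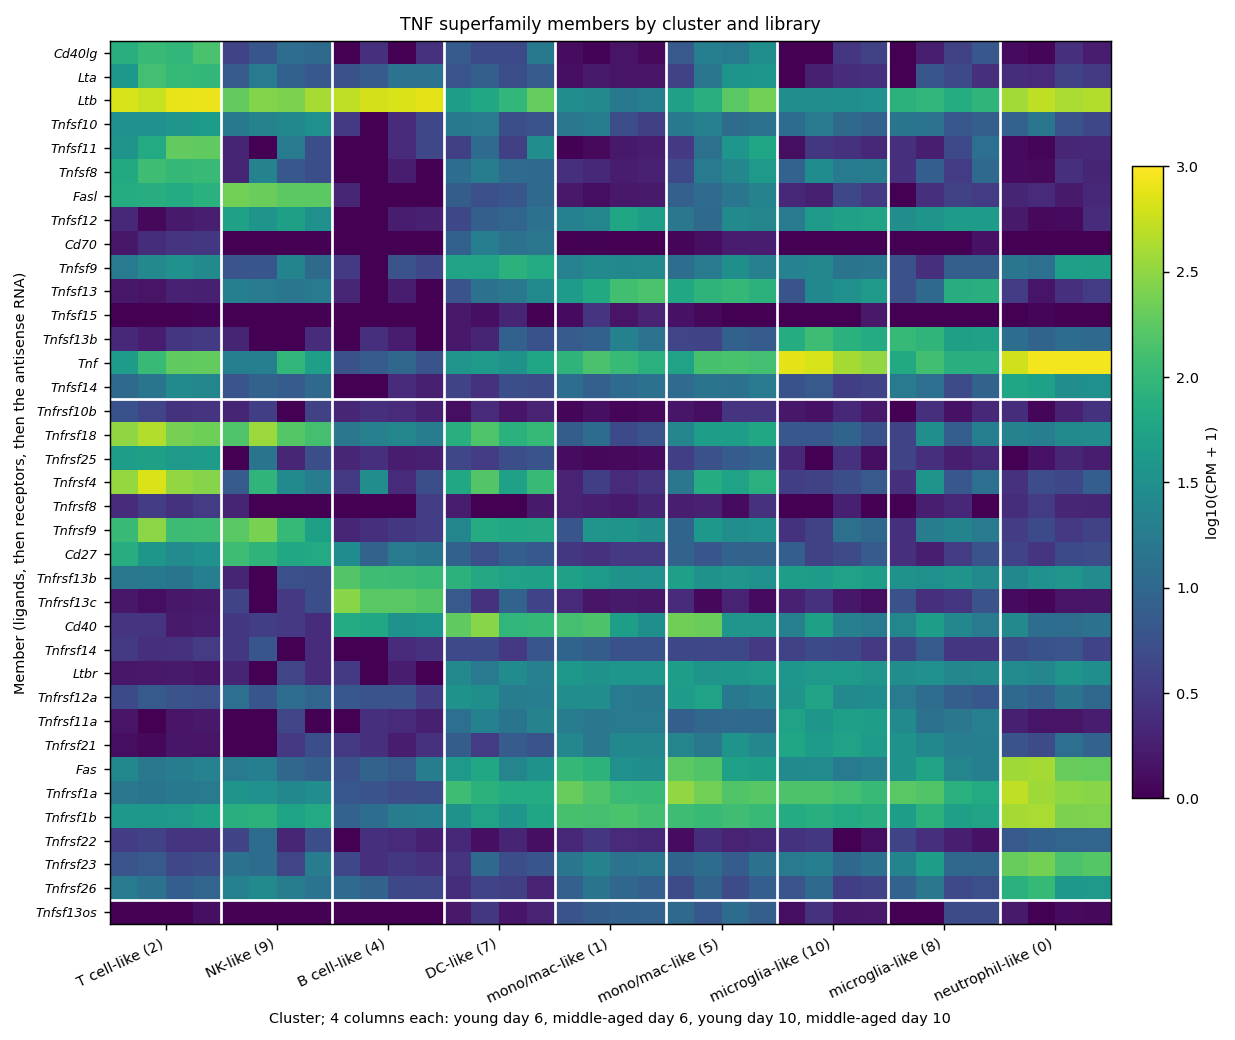
Level of the 37 members with 100 or more UMIs, as log10(CPM + 1), in 9 clusters (blocks) with 4 columns each for young day 6, middle-aged day 6, young day 10 and middle-aged day 10; ligands are above the upper line, then receptors, then the antisense RNA. *Ltb* is bright in T cell-like, B cell-like and neutrophil-like clusters, and *Tnf* in neutrophil-like cluster 0 and microglia-like cluster 10.

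For most pairs, ligand and receptor were highest in different clusters. Of 28 listed ligand-receptor pairs, both partners had 100 or more UMIs in 22, and 4 of these had both highest levels in the same cluster. Those 4 were *Tnf* with *Tnfrsf1a* and with *Tnfrsf1b* in neutrophils, and *Tnfsf8* with *Tnfrsf8* and *Tnfsf10* with *Tnfrsf10b* in T cells, where the receptors reached only 2.06 and 2.50 CPM. *Cd40lg*, the T cell ligand of CD40, was highest in T cells at 109 CPM, and *Cd40* in dendritic cells at 177 CPM. *Tnfsf11*, which encodes RANKL, was highest in T cells at 142 CPM, and its receptor *Tnfrsf11a* (RANK) in microglia-like cluster 10 at 47.1 CPM. The partners of *Tnfrsf4* and *Tnfrsf18* were rare. *Tnfsf4*, the OX40 ligand, had 55 of its 76 UMIs in dendritic cell-like cluster 7, at 3.79 CPM, while *Tnfrsf4* stood at 366 CPM in T cells. *Tnfsf15*, the ligand of death receptor *Tnfrsf25*, had 88 of its 104 UMIs in macrophage-like cluster 1, while *Tnfrsf25* was highest in T cells at 43.9 CPM. *Tnfsf9* was highest in dendritic cells at 61.6 CPM and its receptor *Tnfrsf9* in T cells at 141.5 CPM. *Fasl* was highest in NK cells at 197 CPM and *Fas* in neutrophils at 310.3 CPM. *Cd70* was highest in dendritic cells at 11.8 CPM, and its receptor *Cd27* in NK cells at 84.0 CPM and T cells at 38.0 CPM.

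The B cell survival system was split in the same manner. *Tnfsf13b* (BAFF) was highest in microglia-like clusters 10 and 8, at 82.7 and 62.7 CPM, and at 0.481 CPM in B cells. Cluster 8 also held marker UMIs of monocytes/macrophages and neutrophils. *Tnfsf13* (APRIL) was highest in macrophage-like clusters 1 and 5, at 93.2 and 80.1 CPM. Their receptors *Tnfrsf13c* (BAFF receptor) and *Tnfrsf13b* (TACI) were highest in B cells at 191 and 120 CPM, and *Tnfrsf13b* was found in other cells too, at 69.0 CPM in dendritic cells. *Tnfrsf17*, the plasma cell receptor BCMA, had 13 of its 18 UMIs in B cell-like cluster 4. Both ligands were thus highest in myeloid clusters, and their receptors in B cells.

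In T cell-like cluster 2, 5 ligands and the co-stimulatory receptors *Tnfrsf9* and *Tnfrsf4* were higher in the middle-aged library on day 6, and no member passed the rule on day 10. On day 6, 23 members were measured and 7 were higher, *Lta*, *Tnfrsf9*, *Tnf*, *Tnfrsf4*, *Tnfsf11*, *Tnfsf8* and *Tnfsf9*, against 4.15% of 9044 genes. *Cd27* and *Fas* were lower, against 5.25% of genes. The median log2 ratio of the measured members was 0.16, beside -0.07 over all genes. On day 10, 28 members were measured and 0 were higher or lower, against 2.33% and 0.988% of 10226 genes. On day 6 there were 1307 young and 1137 middle-aged T cells, against 1923 and 2463 on day 10, and their summed T cell markers were near each other, at 5282 and 5055 CPM on day 6.

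Among the ligands, *Lta*, which encodes lymphotoxin-α, stood at 39.3 CPM (young) and 126 CPM (middle-aged) on day 6, and at 102 and 96.3 CPM on day 10. The young day 6 library stood below the other 3. Its log2 ratio between ages was 1.68 (1.49 to 1.88) on day 6 and -0.08 (-0.18 to 0.03) on day 10. *Tnf* was at 44.2 and 108 CPM on day 6 and at 183 and 188 CPM on day 10, so that both day 10 libraries were above both day 6 libraries. The ratio of *Tnf* on day 6 was 1.29 (1.10 to 1.48). *Tnfsf11* was ordered in the same way, at 34.6 and 66.9 CPM on day 6 and at 191 and 182 CPM on day 10, with a day 6 ratio of 0.95 (0.72 to 1.18). *Tnfsf8*, the ligand of CD30, was at 65.0 and 117 CPM on day 6 and at 99.5 and 107 CPM on day 10. *Tnfsf9*, the ligand of *Tnfrsf9*, was low throughout, at 16.1 and 25.1 CPM on day 6 and 32.0 and 25.6 CPM on day 10. *Cd40lg* did not reach the fold on either day, with ratios of 0.42 and 0.51, and *Fasl*, the death ligand of cytotoxic cells, had a ratio of 0.04 on day 6.

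The receptor with the largest ratio in T cells was *Tnfrsf9*, the co-stimulatory receptor CD137. On day 6 it was at 103 CPM (young) and 300.3 CPM (middle-aged), with a log2 ratio of 1.54 (1.42 to 1.66), and at 112 and 115 CPM on day 10. The middle-aged day 6 library was the high one, and the other 3 lay close together. *Tnfrsf4* followed this order, at 335 and 671 CPM on day 6 and 325 and 281 CPM on day 10, with a day 6 ratio of 1.00 (0.93 to 1.07). *Tnfrsf18*, its neighbor, was at 315 and 450 CPM on day 6, a ratio of 0.51 that stayed below 1.5-fold. *Cd27*, a co-stimulatory receptor of resting and memory T cells, went the other way, at 73.3 and 38.2 CPM on day 6 and 26.9 and 31.8 CPM on day 10. *Fas* was at 24.3 and 15.01 CPM on day 6 and 17.03 and 20.2 CPM on day 10. When T cells with UMIs of other lineages were left out, the day 6 ratios of *Tnfrsf9*, *Tnf* and *Cd27* were 1.59, 1.47 and -1.19. This kept only 633 of 1307 young and 513 of 1137 middle-aged cells, against 1241 and 1061 with a narrower list of markers. The listed NK markers, used in this step, summed to 1115 and 1211 CPM in the cluster itself. These ratios thus describe a part of the T cells.

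**Figure D2:**
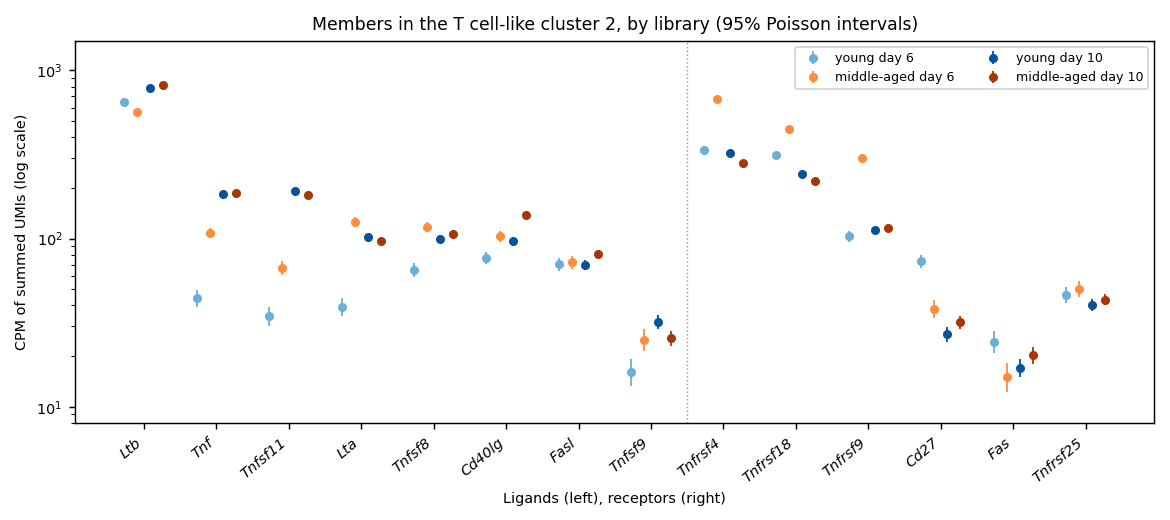
CPM on a log scale of 8 ligands and 6 receptors in T cell-like cluster 2, with 1 point per library and 95% Poisson intervals for counting error. The young day 6 library is the lowest for *Tnf*, *Tnfsf11*, *Lta* and *Tnfsf8*, and the middle-aged day 6 library the highest for *Tnfrsf4*, *Tnfrsf18* and *Tnfrsf9*.

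On day 6 the shares of T cells with a UMI were also higher in the middle-aged library. A *Tnfrsf9* UMI was found in 197 of 1307 young and 401 of 1137 middle-aged T cells on day 6, or 15.1% and 35.3%, and in 28.4% and 26.2% on day 10. After each cell was thinned to 2000 UMIs the 4 shares became 8.39%, 24.2%, 14.1% and 12.4%, for the libraries as listed. In B cell-like cluster 4, which should lack *Tnfrsf9*, 0.339% to 0.888% of cells had a UMI, at median depths of 2402 to 2997 UMIs against 4715 to 6225 in T cells. *Lta* after thinning was in 5.18% and 11.8% of T cells on day 6 and in 10.3% and 8.49% on day 10. On day 6 the middle-aged library was thus higher in the share of cells with a UMI as well as in summed UMIs.

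Regulatory T cells are known to carry OX40, GITR and CD137, so these receptors were also set out by *Foxp3*, the transcription factor of that lineage. A *Foxp3* UMI was found in 2.83% and 1.67% of T cells on day 6 and in 2.50% and 3.57% on day 10. Over all libraries and after thinning, *Tnfrsf9* was found in 48.5% of 169 cells with a *Foxp3* UMI and in 13.2% of 6436 cells without, *Tnfrsf4* in 75.2% and 30.3%, and *Tnfrsf18* in 78.7% and 35.3%. The effector ligands had the opposite order, with *Tnf* in 2.37% and 14.2% and *Tnfsf11* in 4.14% and 15.6%. Among T cells without a *Foxp3* UMI, *Tnfrsf9* was detected on day 6 in 7.57% (young) and 23.7% (middle-aged), and *Tnfrsf4* in 23.35% and 41.3%. Both shares were thus higher in the middle-aged day 6 library among cells without *Foxp3* UMIs. A cell without a UMI may still express the gene, so these cells can include regulatory T cells. The part of regulatory T cells in the age difference was not tested.

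From day 6 to day 10, *Tnf*, *Tnfsf11* and *Tnfsf14* (LIGHT) were higher in T cells at both ages. In young recipients 23 members were measured, 6 were higher, against 5.7% of 9722 genes, and 3 were lower, against 14.1%. In middle-aged recipients 24 were measured, 3 were higher, against 7.5% of 9819 genes, and 3 were lower, against 8.1%. *Tnfsf11* had log2 ratios of 2.46 and 1.44, and *Tnf* of 2.05 and 0.80. The 3 lower members of the middle-aged recipients were *Tnfrsf9*, *Tnfrsf4* and *Tnfrsf18*, at -1.38, -1.26 and -1.04, whereas *Cd27*, *Tnfrsf26* and *Tnfrsf10b* were lower in young recipients. The comparisons between days share their libraries with the comparisons between ages.

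In macrophage-like cluster 1, *Tnfrsf9* had the largest age ratio among members with more than 100 UMIs. Its day 6 levels were 5.29 CPM (young) and 36.1 CPM (middle-aged), followed by 34.7 and 29.7 CPM on day 10, so that the young day 6 library stood below the other 3. The day 6 log2 ratio was 2.77 (2.49 to 3.06), or 118 against 949 UMIs, of which the 10 cells with the most held 50% and 16.2%. The T cell markers of the cluster summed to 29.9 and 12.3 CPM in the same 2 libraries, the opposite order. T cells themselves had more *Tnfrsf9* in the middle-aged library, and the part of T cell UMIs in this ratio was not tested. A UMI was found in 2.18% and 8.77% of macrophages on day 6, and in 0.552% and 4.53% after thinning, while B cells gave 0% and 0.617% after thinning, the latter from 1 cell. Without cells that held UMIs of other lineages the ratio was 2.87.

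In all, 28 members were measured in cluster 1 on day 6, 7 were higher, against 4.37% of 10456 genes, and 2 were lower, against 9.47%. *Tnf* was at 87.5 and 136 CPM on day 6, a ratio of 0.64, and at 104 and 79.7 CPM on day 10, a ratio of -0.39. *Tnfsf15*, also known as TL1A, had a larger ratio than *Tnfrsf9*, at 3.09, from 5 and 50 UMIs on day 6. The 10 top cells held 100% and 86.0% of these UMIs, so the ratio rests on few cells. *Tnfrsf26*, *Tnfrsf22*, *Tnfrsf18* and *Tnfrsf4* were the other higher members, and *Tnfrsf4* with 21 and 68 UMIs had a ratio of 1.46 that was 0.64 without cells holding UMIs of other lineages. *Tnfrsf21* (death receptor DR6) and *Tnfsf14* were lower, at -0.70 and -0.60. On day 10, 26 members were measured, 0 were higher, against 2.15% of 10844 genes, and 1 was lower, against 1.85%. This was *Tnfsf13b*, at 19.8 and 12.7 CPM.

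Between days, *Cd40* and *Fas* were lower and *Tnfsf13* and *Tnfsf12* higher on day 10 in cluster 1 at both ages. *Cd40* was at 128 and 145 CPM on day 6 and at 45.6 and 30.6 CPM on day 10, and *Fas* at 99.7 and 85.4 CPM and then 31.3 and 28.4 CPM. *Tnfsf13* went from 44.95 and 64.6 CPM to 124 and 140 CPM, and *Tnfsf12* (TWEAK) from 19.9 and 22.9 CPM to 58.4 and 47.3 CPM. For each of these 4 genes both libraries of one day lay above both of the other. *Tnfsf10*, which encodes TRAIL, was lower on day 10 at both ages, with log2 ratios of -1.81 and -2.66. In young recipients 27 members were measured, 5 were higher, against 22.5% of 10669 genes, and 10 were lower, against 15.5%. In middle-aged recipients 28 were measured, 5 were higher, against 28.9% of 10806 genes, and 9 were lower, against 11.5%. Without cells holding UMIs of other lineages, the 14 calls of middle-aged recipients became 9 and *Tnfrsf26* went from -0.89 to 0.21, and in young recipients *Ltb* went from -0.87 to 2.33. This kept 1208 of 2383 young and 1055 of 2760 middle-aged cells on day 6. On day 10 it kept only 159 of 2166 and 293 of 2336, so these ratios compare unlike parts of the cluster. With all cells kept, the member medians were -0.07 and -0.39, beside 0.10 and 0.25 over all genes. The cluster thus differed between days in many other genes too.

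The list of 31 genes of TNF receptor signaling, which holds adaptors, kinases and NF-κB subunits and inhibitors, was all measured in cluster 1 between days. In young recipients 15 of its genes were lower and 1 higher, against 15.5% and 22.5% of all genes, and in middle-aged recipients 12 were lower and 0 higher, against 11.5% and 28.9%. *Nfkb1*, a subunit of NF-κB, had ratios of -1.09 and -1.09, and *Casp8*, the protease of death receptor signaling, of -1.19 and -0.94. Between ages on day 6 the list had 0 higher and 0 lower genes in cluster 1, against 4.37% and 9.47%, and in T cells 1 of 31 was higher, against 4.15%, the inhibitor *Nfkbib* at 0.72. In dendritic cells 4 of 31 were higher on day 6, against 7.86%, among them the NF-κB subunit *Relb* at 0.94. There *Ripk1*, a kinase bound to the TNF receptor complex, was the 1 lower gene at -0.67, against 9.61%.

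In macrophage-like cluster 5, the higher members on day 6 were largely genes that T cells lead. 30 members were measured, 9 were higher, 7 of them led by T cells, against 4.73% of 8606 genes, and 2 were lower, against 6.16%. *Tnfrsf4* was at 14.4 and 70.5 CPM on day 6 and at 51.8 and 78.4 CPM on day 10, and *Tnfsf11* at 2.18 and 11.8 CPM and then 36.8 and 56.5 CPM. The T cell markers of this cluster summed to 339, 455, 1053 and 1491 CPM in young day 6, middle-aged day 6, young day 10 and middle-aged day 10. On each day the library with more T cell marker UMIs was thus also the higher for both genes, and their part in these ratios was not tested beyond the following values. When cells with UMIs of other lineages were left out, 3 members passed on day 6, the ratio of *Tnfrsf4* was -0.25 in place of 2.30, and *Lta*, *Cd40lg*, *Tnfsf8*, *Tnfsf11* and *Tnfrsf9* had too few UMIs to compare. *Tnf* was at 52.5 and 132 CPM on day 6 with a ratio of 1.33, which was 2.37 without those cells, and *Tnfrsf18* and *Tnfrsf26* were then at 2.65 and 1.33. On day 10, 29 members were measured, 6 were higher, against 3.94% of 8382 genes, and 1 was lower, against 4.27%, and without those cells 1 passed. Leaving them out kept 355 of 817 young and 139 of 641 middle-aged cells on day 6. On day 10 it kept only 22 of 409 and 45 of 344. How much of the fall in calls follows from the fewer cells was not tested.

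In dendritic cell-like cluster 7, 10 of 23 measured members were higher in middle-aged recipients on day 6, against 7.86% of 8333 genes, and 2 were lower, against 9.61%. *Tnfrsf4* was at 61.7 and 155 CPM on day 6, a ratio of 1.33 (1.13 to 1.52), and at 51.1 and 105 CPM on day 10, a ratio of 1.04. Both middle-aged libraries were above both young ones. *Cd40*, through which T cells license dendritic cells, was at 186 and 292 CPM on day 6 and at 93.1 and 98.7 CPM on day 10. *Cd70*, which signals to *Cd27* on T cells, was at 7.51 and 18.3 CPM on day 6, with 50 and 54 UMIs. *Tnfrsf9* had a day 6 ratio of 1.62 and *Tnfrsf18* of 0.98. The T cell markers of the cluster summed to 319 and 270.5 CPM on day 6. T cells themselves had more *Tnfrsf4* and *Tnfrsf9* in the middle-aged library, and the part of T cell UMIs in these ratios was not tested. Without cells holding UMIs of other lineages the ratios of *Tnfrsf4*, *Tnfrsf9*, *Cd40* and *Cd70* were 2.24, 2.15, 0.71 and 1.36. *Tnfsf4*, the OX40 ligand, had 8 and 15 UMIs on day 6 and 2 and 30 on day 10 in these cells, too few for a call. The lower members were *Ltbr*, the lymphotoxin-β receptor, at 24.9 and 15.6 CPM, and *Tnfrsf21*.

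On day 10, 19 members were measured in the dendritic cell-like cluster, 7 were higher, against 3.5% of 7118 genes, and 0 were lower, against 2.67%. They included the T cell genes *Tnfsf11*, *Cd40lg* and *Ltb*, with *Ltb* at 95.2 and 196 CPM. The T cell markers were also higher in the middle-aged library, at 591 against 359 CPM. Without cells holding UMIs of other lineages, of which 75 and 158 cells remained, 0 members passed the rule and the ratio of *Tnfrsf4* was 0.13.

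**Figure D3:**
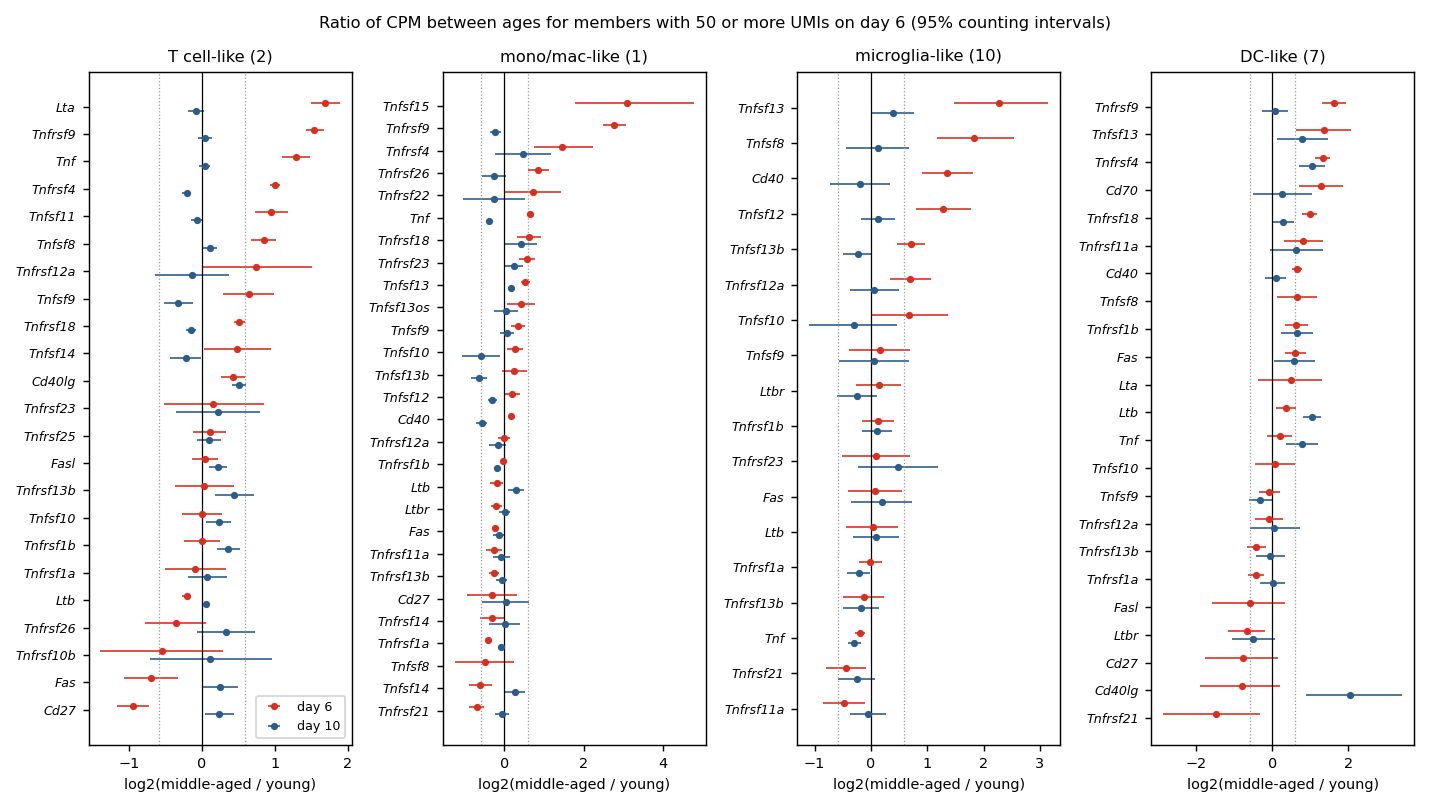
Log2 ratio of CPM, middle-aged over young, with 95% counting intervals, for the members with 50 or more UMIs on day 6 in clusters 2, 1, 10 and 7; red points are day 6, blue points day 10 (where measured) and dotted lines 1.5-fold. In T cell-like, macrophage-like and microglia-like clusters the red points reach far to the right of 0 for several members while most blue points stay near 0.

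In microglia-like cluster 10, ligands of the BAFF, APRIL and TWEAK group were higher in middle-aged recipients on day 6. 18 members were measured and 6 were higher, against 5.94% of 8557 genes, while 0 were lower, against 7.16%. *Tnfsf13* was at 4.95 and 23.9 CPM on day 6 and at 30.7 and 40.2 CPM on day 10, and *Tnfsf12* at 16.6 and 40.3 CPM and then 50.9 and 55.6 CPM. In both genes the young day 6 library was below the other 3. *Tnfsf8* was at 7.86 and 28.1 CPM on day 6, with 27 and 67 UMIs, and at 15.9 and 17.3 CPM on day 10. *Cd40* was at 19.2 and 49.1 CPM on day 6, a ratio of 1.35 (0.91 to 1.81), and at 19.1 and 16.7 CPM on day 10. *Tnfsf13b* and *Tnfrsf12a*, the TWEAK receptor, had day 6 ratios of 0.71 and 0.70. Without cells holding UMIs of other lineages the ratios of *Tnfsf13*, *Tnfsf8* and *Cd40* were 3.01, 2.23 and 1.22, and 4 members passed. Summed microglia markers were at 9687 and 6258 CPM on day 6 and summed monocyte/macrophage markers at 4192 and 3865 CPM.

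*Tnf* itself had the most UMIs of the members in microglia-like cluster 10 and did not pass the rule between ages. It was at 750 and 656 CPM on day 6 and at 395 and 323 CPM on day 10, with age ratios of -0.19 (-0.29 to -0.10) and -0.29. Both day 10 libraries were below both day 6 libraries, the reverse of the order in T cells. On day 10, 19 members were measured and 0 were higher or lower between ages, against 2.5% and 2.19% of 8604 genes. Between days, 3 of 18 members were higher in young recipients, against 8.47% of 8882 genes, and 4 were lower, against 19.7%. In middle-aged recipients 1 of 18 was higher, against 5.63% of 8341 genes, and 7 were lower, against 14.1%. Without cells holding UMIs of other lineages these 7 and 8 calls became 4 and 5, and *Fas*, lower in young recipients at -0.63, was at 0.67. *Tnfsf13* was the 1 member higher at both ages.

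The shallower microglia-like cluster 8, with median depths of 2059 to 3069.5 UMIs per cell, had 12 measured members on day 6. Of these 5 were higher, *Tnfrsf23*, *Cd40*, *Tnf*, *Tnfrsf1b* and *Fas*, against 7.15% of 4030 genes, and 0 were lower, against 5.09%. *Cd40* had 15 and 61 UMIs, at 23.0 and 46.9 CPM. *Tnf* had 43 and 160 UMIs, of which the 10 top cells held 93.0% and 53.8%, and its ratio of 0.90 was -0.0040 as a mean over cells. Neutrophil markers summed to 7821 and 11422 CPM in this cluster on day 6, and microglia markers to 5740 and 3826 CPM. On day 10 monocyte/macrophage markers summed to 16612 and 19047 CPM, and microglia markers to 2644 and 3186 CPM. The cluster thus held UMIs of several lineages. Without cells holding UMIs of other lineages 1 member passed on day 6. On day 10, 1 of 15 members was higher, *Tnfrsf18*, against 3.11% of 6117 genes, and 0 were lower, against 2.52%.

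Neutrophil-like cluster 0 had the highest *Tnf* level of the 9 clusters, with 40.3% of all *Tnf* UMIs. *Tnf* was at 605 and 884 CPM on day 6 and at 886 and 873 CPM on day 10, and a UMI was found in 45%, 52.0%, 50.5% and 50.6% of its cells in the 4 libraries. Its receptors *Tnfrsf1a* and *Tnfrsf1b* were at 514 and 376 CPM and at 395 and 418 CPM on day 6. Of 21 members measured on day 6, 2 were higher, against 2.72% of 6980 genes, and 1 was lower, against 9.05%. These were *Tnfrsf4*, *Tnfsf10* and, lower, *Cd40*, which was at 24.9 and 11.3 CPM. On day 10, 1 of 18 was higher, *Tnfrsf4* again with 16 and 39 UMIs, against 1.31% of 7852 genes, and 0 were lower, against 2.57%. *Fas*, which neutrophils also led, was at 371 and 396 CPM on day 6 and at 199 and 196 CPM on day 10.

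NK-like cluster 9 carried *Fasl* at 231 and 206 CPM on day 6 and 173 and 175 CPM on day 10, with little difference between ages. Of 7 members measured on day 6, 1 was higher, against 3.31% of 3564 genes, and 0 were lower, against 3.98%. This was *Tnfrsf18*, at 148 and 357 CPM, and the T cell markers summed to 925 and 1789 CPM in the same libraries. On day 10, 1 of 8 was higher, *Ltb*, against 2.92% of 4071 genes, and 2 were lower, *Tnfrsf9* and *Tnf*, against 1.67%. *Tnfrsf9* was at 102 and 49.8 CPM on day 10, with 94 and 35 UMIs, and 98.9% and 97.1% of *Tnf* UMIs lay in 10 cells each. Without cells holding UMIs of other lineages, which left 28 middle-aged cells on day 6, 0 members passed on either day.

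B cell-like cluster 4 held *Ltb* at 521 and 633 CPM on day 6 and 674 and 762 CPM on day 10. Of 4 members measured on day 6, 0 were higher, against 1.81% of 3474 genes, and 1 was lower, *Tnfrsf13c*, against 11.3%. *Tnfrsf13c* was at 289 and 170 CPM on day 6, with 258 and 106 UMIs, and at 170 and 153 CPM on day 10. Its day 6 ratio of -0.76 was -0.58 with TMM scaling, which ended the call. Summed B cell markers were at 8631 and 6175 CPM on day 6, in the same order, and plasma cell markers at 416.5 and 3775 CPM. On day 10, 0 of 5 members were higher or lower, against 2.84% and 3.49% of 4924 genes.

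Across clusters, *Tnfrsf4* had 5 day 6 calls, and *Tnfrsf9*, *Tnf*, *Tnfrsf18*, *Tnfsf8* and *Cd40* had 4 each. How many of all genes were called in as many clusters is not given here. Of the *Cd40* calls 3 were higher and 1 lower. Without cells holding UMIs of other lineages, *Tnfsf8* in cluster 7 went from 0.65 to -0.54, and in cluster 5 it had too few UMIs to compare. The *Tnf* ratio of cluster 8 was -0.0040 as a mean over cells. *Tnfrsf4* was higher in the 5 clusters where it was measured on day 6, clusters 2, 1, 5, 7 and 0, with log2 ratios of 1.00 to 2.30, but the 2.30 of cluster 5 was -0.25 without cells holding UMIs of other lineages, and -0.55 with a narrower list of their markers. On day 10 it was higher in 3 of 5, of which cluster 7 went from 1.04 to 0.13 without those cells. *Tnfrsf9* was higher in 4 of 6 on day 6, with ratios of 0.53 to 2.77, and in 0 of 7 on day 10, where 1 was lower. *Tnf* was higher in 4 of 7 on day 6 and on day 10 higher in 1 of 8 and lower in 1. In total, 47 of 166 measured values of members by cluster were higher and 10 lower on day 6, against 4.86% and 7.58% of 63044 values over all genes. On day 10, 16 of 167 were higher and 4 lower, against 2.67% and 2.4% of 68138, and these 20 calls became 7 without cells holding UMIs of other lineages. *Tnfrsf1a*, the TNF receptor with a death domain, was not called in any of 7 clusters on either day, with day 6 ratios of -0.53 to -0.01. *Tnfrsf21* was lower in 3 of 6 clusters on day 6, of which cluster 5 went from -0.59 to 0.14 without cells holding UMIs of other lineages. The values of different clusters come from the same 4 libraries and are not independent of each other.

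**Figure D4:**
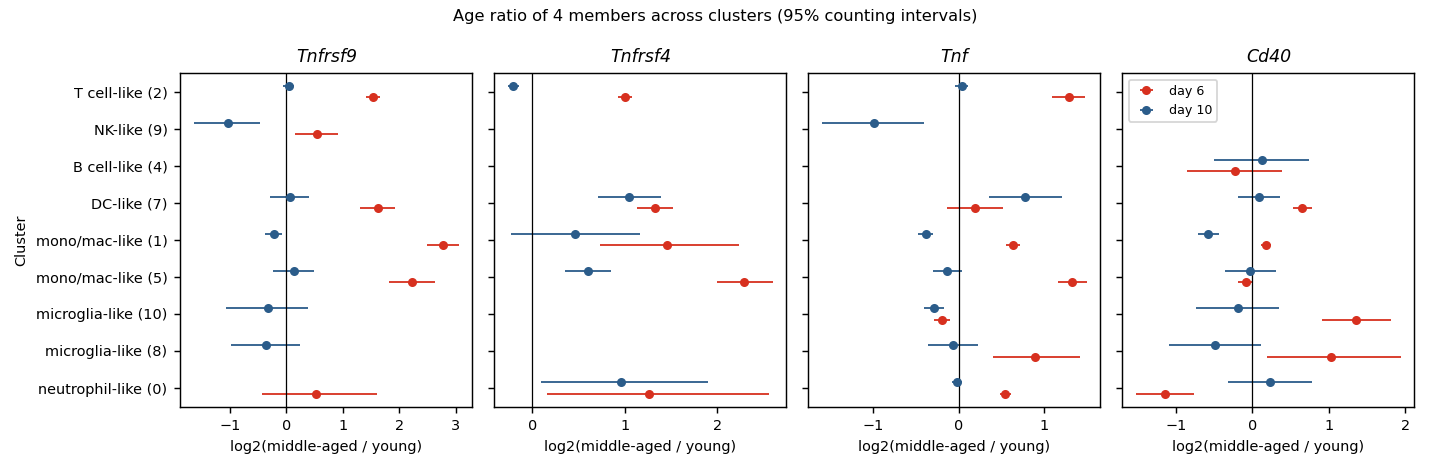
Log2 ratio of CPM, middle-aged over young, for *Tnfrsf9*, *Tnfrsf4*, *Tnf* and *Cd40* in each cluster with 50 or more UMIs, with 95% counting intervals; red points are day 6 and blue points day 10. The red points of *Tnfrsf4* lie right of 0 in the 5 clusters shown, from 1.00 to 2.30, although the point of cluster 5 (2.30) was at -0.25 without cells holding UMIs of other lineages, and those of *Cd40* lie on both sides, from -1.14 to 1.35.

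Microglia of untreated mice were compared in bulk, with 79373420 reads in the young and 76293436 in the middle-aged library. 26 members had 100 or more reads, of which 3 were higher in middle-aged mice, against 4.82% of 14821 genes, and 4 were lower, against 9.58%. *Tnfsf8* had 295 and 868 reads, or 3.72 and 11.4 CPM, a log2 ratio of 1.61 (1.42 to 1.81). *Tnf* had 4351 and 8742 reads, or 54.8 and 115 CPM, a ratio of 1.06 (1.01 to 1.12), and *Tnfsf9* had 92 and 142 reads. All 3 higher members were ligands. The receptors with the most reads lay close to equality, with *Tnfrsf1b* at 541 and 529 CPM, *Tnfrsf21* at 349 and 357 CPM, *Tnfrsf1a* at 250 and 241 CPM and *Tnfrsf11a* at 234 and 203 CPM.

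The lower members in naive microglia were receptors of low level. *Tnfrsf19*, also known as TROY, had 744 and 213 reads, a ratio of -1.75, and *Tnfrsf25*, *Tnfrsf26* and *Tnfrsf22* had ratios of -1.20, -1.13 and -0.65. The 5 listed endothelial markers were also lower in the middle-aged library, from 336 to 95.1 CPM in sum. T cell markers, with 1 gene measured, summed to 3.52 and 1.39 CPM, and B cell markers to 38.6 and 22.7 CPM. The plasmacytoid dendritic cell and dividing lists were lower in sum by less. The regulatory T cell, plasma cell, neutrophil, monocyte/macrophage and dendritic cell lists were higher in sum. The part of such cells in the values of these receptors was not tested. In bulk, fewer cells of a type and less RNA per cell cannot be told apart. The 8 microglia markers summed to 28815 and 27181 CPM and none was called. *Tnfsf11*, *Cd40lg*, *Cd70*, *Fasl* and *Tnfsf4* had 0 reads in both libraries. *Tnfsf8* was thus higher in middle-aged mice both in naive microglia and in microglia-like cluster 10 on day 6. *Tnf*, higher in naive microglia at 1.06, was at -0.19 in cluster 10 on day 6, and *Tnfsf9* was not called there. *Cd40* and *Tnfsf13*, both higher in cluster 10, had naive ratios of 0.24 and -0.19, with 59 reads or more in each library. Reads were counted without strand, so *Tnfsf13* and its antisense RNA *Tnfsf13os* cannot be told apart in bulk.

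**Figure D5:**
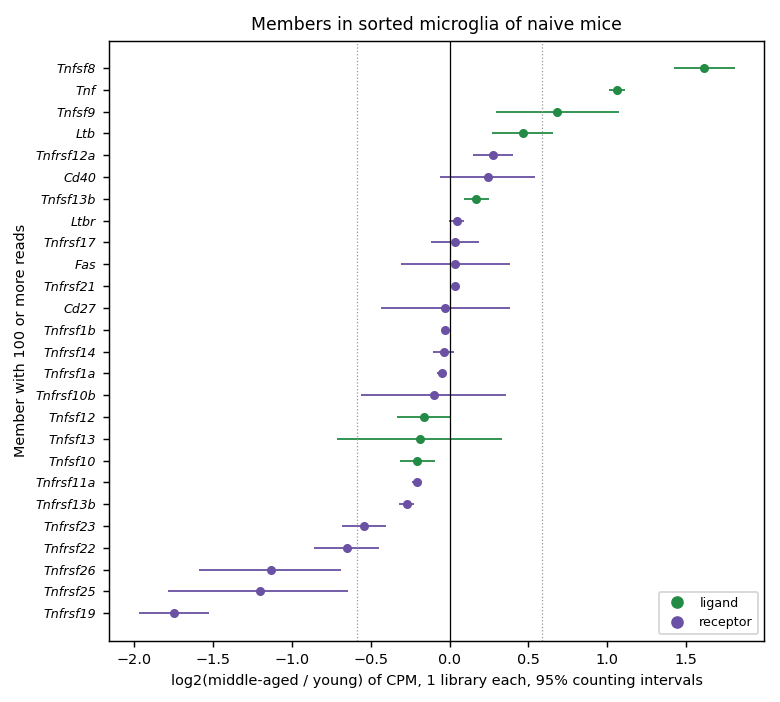
Log2 ratio of CPM, middle-aged over young, in sorted microglia of naive mice for the 26 members with 100 or more reads, with 95% counting intervals and 1 library per age; green points are ligands, violet points receptors and dotted lines 1.5-fold. *Tnfsf8*, *Tnf* and *Tnfsf9* lie right of the upper line, and *Tnfrsf22*, *Tnfrsf26*, *Tnfrsf25* and *Tnfrsf19* left of the lower one.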

How the data were processed

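Single-cell counts were deposited as raw UMI counts per gene and cell, made by the authors with Cell Ranger 3.1.0 on mm10 per the labels, with the cell filters and clusters that the authors set. Doublets were not called again here. Bulk counts were deposited as reads per gene from featureCounts, counted without strand. The members and gene lists were chosen with earlier results of these data known. UMIs were summed per deposited cluster and library and divided by the total of the cluster (CPM). Exact Poisson intervals were given for levels, and exact conditional binomial intervals at 95% for ratios. With 1 library per group there was no test between groups. Members needed 50 UMIs in both libraries together (100 reads in bulk), and 100 UMIs in all for a highest cluster. Shares of cells were recomputed after thinning cells to 2000 or 1000 UMIs, leaving out shallower cells. Named were members called in a cluster, the 3 ligands and 3 receptors with the highest CPM there, and their listed partners; further members, such as *Tnfsf4* in dendritic cells, were named after their values were seen.

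Clusters were named from marker lists. Alternatives were TMM scaling in edgeR 4.0.16 (R 4.3.3), totals without ribosomal protein and mitochondrial genes, a minimum of 20 or none, means over cells, and leaving out cells that held UMIs of another lineage (at least 2, or 5 for neutrophil markers). A narrower form of the last with lineage-restricted markers was chosen after seeing the data. Python 3.11.15, numpy 2.4.6, scipy 1.17.1 and pandas 2.3.3 were used, and the ratio step was tested on simulated data. Median depth was 4704.5 to 6196 UMIs per cell, and 0 columns of per-sample values were left unused. Promoters were those of RefSeq on GRCm38.p6 and gene positions those of GENCODE, a release other than the one behind the counts.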

Additional observations from a re-analysis of the deposited data

Results flagged for a closer look

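For 8 member values the age ratio, middle-aged over young on the log2 scale, had opposite signs on day 6 and day 10, with both counting intervals away from 0. The difference between days was not tested, since each ratio rests on 1 library per group. In T cell-like cluster 2, *Tnfrsf4* was at 1.00 on day 6 and -0.21 on day 10, *Tnfsf9* at 0.64 and -0.33, and *Cd27* at -0.94 and 0.24. In macrophage-like cluster 1, *Tnfrsf9* was at 2.77 and -0.23, *Tnf* at 0.64 and -0.39, and *Tnfsf14* at -0.60 and 0.27. In macrophage-like cluster 5, *Tnfsf9* was at 0.53 and -0.66, although the day 10 ratio was 1.12 without cells holding UMIs of other lineages, and 0.27 with a narrower list of their markers. Both lists left few cells there on day 10. In NK-like cluster 9, *Tnfrsf9* was at 0.54 and -1.04.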

How the results depend on the processing

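No paired analysis was possible because each group had 1 library. Over the alternatives, 41 to 78 member values were called between ages on day 6 against 57 as reported, 24 to 38 against 31 between days in young and 21 to 34 against 28 in middle-aged recipients. On day 10 between ages the count of 20 was 7 when cells with UMIs of another lineage were left out, by either list, and in bulk the count of 7 was 11 with no minimum. Some ratios changed sign when those cells were left out, with values by the planned and the narrower list in turn. In cluster 5 on day 6, *Tnfrsf4* went from 2.30 to -0.25 and -0.55 and *Tnfrsf21* from -0.59 to 0.14 and 0.15. On day 10 there, *Tnfrsf23* went from 0.91 to -1.20 and -1.19 and *Tnfsf9* from -0.66 to 1.12 and 0.27. In cluster 7, *Tnfsf8* went from 0.65 to -0.54 and -1.25 on day 6, and *Ltb* from 1.04 to -0.14 by the planned list on day 10. Between days in young recipients, *Ltb* in cluster 1 went from -0.87 to 2.33 and 1.89, *Tnfsf8* there from -1.11 to 0.28 by the narrower list, and *Fas* in cluster 10 from -0.63 to 0.67 by either. In middle-aged recipients, *Tnfrsf26* in cluster 1 went from -0.89 to 0.21 by the planned list. As means over cells, *Fas* in cluster 10 was 0.14 and *Tnf* in cluster 8 on day 6 was -0.0040. Both lists left few cells in some clusters. In cluster 5 on day 10, 22 young and 45 middle-aged cells remained by the planned list, and 34 and 70 by the narrower. In cluster 1 of young recipients, 1208 cells remained on day 6 and 159 on day 10 by the planned list. Otherwise the cause of these changes was not tested. Depth limited the smaller clusters most, with 4 members measured in B cells and 7 in NK cells on day 6.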
